A study of Papio anubis with 6 samples.

Results

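CCDC115 helps to assemble the vacuolar proton pump, and it is described here with the pseudogene LOC101008044, the assembly factors TMEM199 and VMA21 and 6 subunits of the pump, in baboon proerythroblasts. The members were chosen by gene name, with earlier results of these data known. CCDC115 and LOC101008044 were picked because their level was low in the long-term samples, so their values in those samples are a description and were not tested. All 10 names were found among the 39023 genes listed in each of the 2 deposited tables, and 9 of them had a mean level in both. ATP6AP1, an accessory subunit that is also known as Ac45, was listed without a value in both tables and is not described further.

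The cells were proerythroblasts, early precursors of red cells, sorted from baboon (Papio anubis) bone marrow as CD105+CD34-CD117+bRBC+ cells. There were 3 groups (untreated controls, short-term RN-1 and long-term RN-1), each with 2 samples. RN-1, given under the skin, blocks the histone demethylase LSD1 (KDM1A). The short-term samples (STT) came from animals given 0.25 mg/kg/d for 3 d, and these were the same 2 animals as the controls. The long-term samples (LTT) came from 2 other animals dosed at 0.25 mg/kg/d, 5 d each week, over more than 265 d, so that long treatment and animal cannot be told apart. Sequencing was strand-specific and started near the poly(A) tail, with 1 fragment per transcript, so that levels in CPM (counts scaled to library size) do not grow with gene length.

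The vacuolar proton pump is a rotary machine in the membranes of endosomes, lysosomes and the Golgi apparatus. Its cytosolic part hydrolyses ATP, and its membrane part, which is put together in the endoplasmic reticulum with the help of assembly factors, carries protons into the lumen. In red cell precursors the acid endosome is where transferrin gives up its iron. In humans, inherited defects of CCDC115, TMEM199 and ATP6AP1 disturb protein glycosylation, and defects of VMA21 cause a muscle disease with excessive autophagy.

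What could be read for each gene was its mean level over 4 libraries, given once in the table of controls and short-term samples and once in the table of controls and long-term samples. No values per sample were used, and the spread between animals is therefore unknown. The short-term mean behaved as a geometric mean and the long-term mean as an arithmetic mean, as far as their lowest values and their sums show. The inferred library sizes lay between 3372643 and 5270054 reads in the short-term table, with a mean of 4310584, and had a mean of 3634191 in the long-term table. Both tables contain the same 2 control libraries. If each library counts equally and the scalings match, the control share drops out of the difference between the tables. On that reading, and with the kinds of mean given above, 2 times that difference in CPM is a lower limit. It limits the excess of the short-term over the long-term group mean. A negative value of this difference fixes no direction, because a geometric mean lies below an arithmetic mean whenever libraries differ. The 95% limits given with each difference cover counting error only. The tables were scaled separately by the authors, and no test was made across them. In bulk RNA of sorted cells, fewer cells of a type and less RNA per cell cannot be told apart.

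CCDC115 had a mean level of 121.5 CPM over the controls and short-term samples and of 67.1 CPM over the controls and long-term samples. LOC101008044, which RefSeq annotates as a transcribed pseudogene (assembly Panubis1.0), had 120.4 CPM in the first table and 63.2 CPM in the second. The long-term table thus held 55.2% of the short-term mean for CCDC115 and 52.5% for LOC101008044. A gene with equal levels in controls and short-term samples and with no long-term reads would show a log2 ratio of -1 (long-term over short-term table), and the values were -0.86 for CCDC115 and -0.93 for LOC101008044. The lower limit on the excess of the short-term over the long-term mean was an estimated 108.8 CPM for CCDC115 (95% limits 95.4 and 122.3). For LOC101008044 it was an estimated 114.5 CPM (95% limits 101.2 and 127.8). These means rest on an estimated 2095 reads of CCDC115 in the short-term table and 975 in the long-term table, and on 2076 and 919 reads of LOC101008044.

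**Figure D1:**
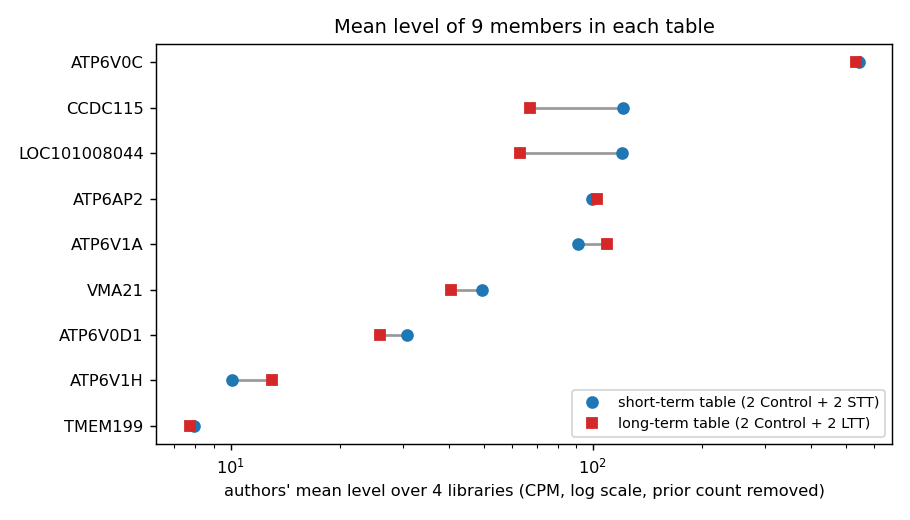
Mean level of the 9 members with a value, in CPM on a log axis, in the table of 2 controls and 2 short-term samples (circles) and the table of 2 controls and 2 long-term samples (squares), with lines joining the points of each gene. CCDC115 lies at 121.5 and 67.1 CPM and LOC101008044 at 120.4 and 63.2 CPM, whereas the points of TMEM199, ATP6AP2 and ATP6V0C nearly coincide.

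Since no level can be below 0, the means also set limits on each group. For CCDC115 neither the controls nor the long-term samples can have had a mean above about 134.1 CPM. For LOC101008044 that limit was about 126.4 CPM. If each library counts equally, the 2 group means add up to about these values, so a higher control level leaves a lower long-term level. The sums are approximate, because counting error and the weight of each library are not included. The geometric mean of the short-term samples was at least about 110.0 CPM for CCDC115 and at least about 114.8 CPM for LOC101008044. Had the control level of CCDC115 equalled its short-term level, the long-term mean would have been at most about 12.6 CPM, or 10.4% of the control level. The same assumption leaves at most about 5.95 CPM of LOC101008044 in the long-term samples, or 4.94% of the control level. The means alone do not say whether that assumption holds, and a complete loss of either transcript cannot be read from them. The values of 12.6 and 5.95 CPM are estimates without counting limits. They would be higher if the differences lay at their lower 95% limits of 95.4 and 101.2 CPM. They also move with the scaling of the long-term table.

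**Figure D2:**
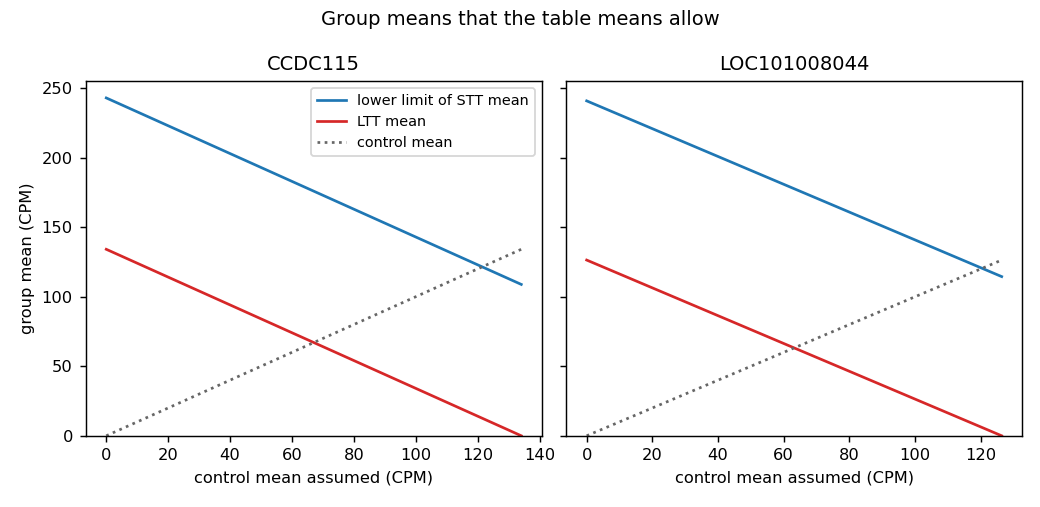
Group means that the table means allow for CCDC115 (left) and LOC101008044 (right), in CPM, against the control mean that is assumed. The line of the long-term samples (LTT) falls to 0 where the controls reach 134.1 CPM for CCDC115 and 126.4 CPM for LOC101008044. The line of the estimated lower limit of the short-term samples (STT) runs 108.8 and 114.5 CPM above it. Counting error is not drawn. Where controls are highest, the geometric means of the tables set a slightly tighter limit of 110.0 and 114.8 CPM. Where controls are low, that limit is much tighter than the line, and it is not drawn.

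A comparison with other genes was made over the 8733 that had a value in both tables and reached a log2 level of 3 in either. Of these, 99 (1.13%) had a log2 ratio of table means at or under -0.5. Of the 9 members compared, 2 lay there, CCDC115 and LOC101008044, and these are the ones that had been picked for a low long-term level. LOC101008044 had the 7th lowest ratio of all genes compared and CCDC115 the 11th lowest. The genes around them in that order were mostly near the minimum level, where the ratio scatters more. Among the 3009 genes at a log2 level of 6 or above in the short-term table, 8 had a ratio at or under -0.5. The ratios of LOC101008044 and CCDC115 were the lowest and the next lowest of these. That cut used the short-term table alone, and LOC101008044 was at a log2 level of 5.99 in the long-term table. Both genes had been picked for a low long-term level, so their ranks are a description and lend no support. At or over 0.5 were 1133 of the 8733 genes (13.0%) and 0 of the 9 members. The way genes were admitted can raise that share, since 7994 of the 8733 reached the minimum in the short-term table. The rest entered through the long-term table alone, whereas all 99 genes at or under -0.5 reached it in the short-term table. An arithmetic mean set over a geometric mean can also raise ratios. The median log2 ratio was 0.07 over all genes compared and -0.04 over the 9 members.

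**Figure D3:**
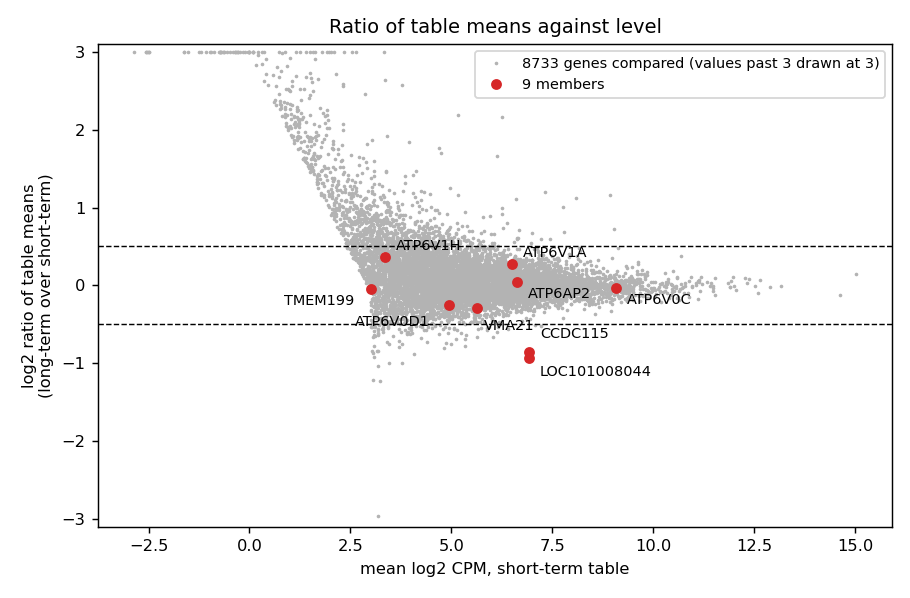
Log2 ratio of the table means (long-term over short-term) against the mean log2 CPM in the short-term table, for 8733 genes (grey) and the 9 members (red), with dashed lines at -0.5 and 0.5. CCDC115 and LOC101008044 lie at -0.86 and -0.93, below the band of genes of similar level, and the other 7 members lie between the dashed lines. The slanting left edge is made by the minimum level.

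The levels of CCDC115 and LOC101008044 were close to each other in both tables. LOC101008044 stood at 99.1% of CCDC115 in the short-term table and at 94.2% in the long-term table. Of the other genes, LOC101008044 was also the one whose pair of mean log2 levels lay nearest to the pair of CCDC115, at a distance of 0.09 over the 2 values. Both had been picked together for a low level in the long-term samples. This nearness therefore follows in part from the choice and lends no support. The next nearest were AES, a transcriptional co-repressor, at 0.29, CHMP1A, a subunit of the ESCRT machinery that cuts membrane necks, at 0.37, LOC103885873 at 0.37 and the adaptor protein SKAP2 at 0.37. AES had 108.2 CPM in the short-term table and 79.0 CPM in the long-term table, so its ratio of -0.45 was smaller in size than that of CCDC115. A near-identical copy can take reads from its partner. Whether LOC101008044 is such a copy of CCDC115, and whether the 2 share reads, was not tested, since no sequence of either was used. The level of each is therefore uncertain, and they do not count as independent observations. CCDC115 has no entry under that symbol in the RefSeq table of Panubis1.0, which held the other 9 members.

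The other assembly factors differed less between the tables. TMEM199, the partner of CCDC115 in the assembly complex of the endoplasmic reticulum, had 7.95 CPM in the short-term table and 7.72 CPM in the long-term table. The lower limit of its difference between short-term and long-term samples was 0.447 CPM (95% limits -3.60 and 4.42), and -0.538 CPM with the prior count left in. At an estimated 137 and 112 reads no direction could be read for TMEM199. VMA21, a small membrane protein that escorts the membrane part of the pump out of the endoplasmic reticulum, had 49.6 CPM and 40.6 CPM. For VMA21 the lower limit on the excess of short-term over long-term samples was an estimated 18.0 CPM (95% limits 8.57 and 27.4). Its log2 ratio of -0.29 was lower than that of all but 5.57% of the genes compared. For equal controls and short-term samples, these means put the long-term upper limit of VMA21 at about 31.5 CPM, or 63.6% of the control level. Counting error is not carried into that upper limit. TMEM199 had the lowest level of the 9 members in both tables.

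Among the subunits of the membrane part, ATP6V0C was the most abundant of the members. This proteolipid, whose copies form the proton-carrying ring, had 543.7 CPM in the short-term table and 533.1 CPM in the long-term table. The lower limit of the difference between short-term and long-term samples was 21.1 CPM, and counting error put this limit between -11.4 and 53.6 CPM, so that it fixes no direction. With the long-term table scaled so that the median ratio over all genes was 0, the lower limit was 70.1 CPM, with counting limits of 38.4 and 101.7. ATP6V0D1, which links the ring to the central stalk, had 30.8 CPM and 25.9 CPM. The lower limit of its difference was an estimated 9.71 CPM, with 95% limits of 2.18 and 17.2. Of all genes compared, 7.72% had a lower ratio than the -0.25 of ATP6V0D1. ATP6AP2, an accessory subunit also known as the prorenin receptor, had 99.4 CPM and 102.8 CPM, and the lower limit of its difference was -6.86 CPM (95% limits -21.0 and 7.25), which fixes no direction. On the scale of the tables, ATP6V0D1 alone of these 3 genes had limits above 0.

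The members of the cytosolic part, ATP6V1A and ATP6V1H, had higher means in the long-term table. ATP6V1A, the catalytic subunit that binds ATP, had 90.9 CPM in the short-term table and 109.6 CPM in the long-term table, a log2 ratio of 0.27. ATP6V1H, a regulatory subunit, had 10.1 CPM and 13.0 CPM, a log2 ratio of 0.36. Ratios above these were found for 24.7% and 18.4% of the genes compared, respectively. A difference of this sign can come from unequal libraries within the short-term table as well as from a higher long-term level, so no direction is drawn for ATP6V1A or ATP6V1H. Other subunits of that part had lower means in the long-term table, namely ATP6V1B2 (52.0 and 49.0 CPM), ATP6V1E1 (67.6 and 64.8 CPM), ATP6V1F (108.4 and 97.6 CPM) and ATP6V1G1 (184.2 and 175.8 CPM). The order of the 9 members by level in the short-term table was ATP6V0C, CCDC115, LOC101008044, ATP6AP2, ATP6V1A, VMA21, ATP6V0D1, ATP6V1H and TMEM199. This is an order of CPM values, and how well the reads of each gene were captured and mapped was not tested. In the long-term table ATP6V1A and ATP6AP2 stood above CCDC115 and LOC101008044. As neighbours in the first order, CCDC115 and LOC101008044 had an estimated 2095 and 2076 reads. Whether they share reads was not tested, so no counting error was set on the gap between them.

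The rest of the pump was read from fixed lists of 26 subunits and of 18 genes for assembly and regulation, which include members. Of the 26 subunits 18 had a mean in both tables, 8 had none in either, and 16 reached the minimum level. Of the 16, 0 had a log2 ratio at or under -0.5 and 1 was at or over 0.5, against 1.13% and 13.0% of all genes compared. The limit on the 13.0% given above holds here too. The median log2 ratio of these 16 subunits was 0.01. The lowest of them was ATP6V0A2, an isoform of the large membrane subunit, with 9.57 CPM and 7.71 CPM and a ratio of -0.31. The subunit past 0.5 at that level was RNASEK, a small protein of the membrane part, with 14.8 CPM in the short-term table and 21.5 CPM in the long-term table. Below the minimum level, the large membrane subunit isoforms TCIRG1 (1.82 and 4.42 CPM) and ATP6V0A4 (0.324 and 1.08 CPM, the lowest of the subunits with a value) also had log2 ratios past 0.5, at 1.28 and 1.74. Summed over the 18 subunits with a value, the level was 1530 CPM in the short-term table and 1548 CPM in the long-term table.

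Of the 18 assembly and regulation genes, 14 reached the minimum level. Of these 14 genes 1, CCDC115, had a ratio at or under -0.5, against 1.13% of all genes compared, and this gene had been picked for a low long-term level. DMXL1, DMXL2 and LAMTOR5 lay at or over 0.5, against 13.0% of all genes compared, with the same limit on that share. DMXL1 and DMXL2, relatives of the yeast factor that rejoins the separated parts of the pump, had log2 ratios of 0.54 and 0.66. LAMTOR5, a subunit of the Ragulator complex that couples the lysosome to mTORC1, had 16.5 CPM in the short-term table and 26.9 CPM in the long-term table. The most abundant gene of this list was LAMTOR1, the membrane anchor of Ragulator, at 282.6 and 272.6 CPM. The lowest with a value in both tables was SLC38A9, a lysosomal amino acid sensor, in the short-term table (3.23 CPM, and 6.89 CPM in the long-term table, a log2 ratio of 1.10 below the minimum level) and the Ragulator subunit LAMTOR4 in the long-term table (5.75 CPM, and 6.41 CPM in the short-term table). Over both lists, 29 genes other than CCDC115 were compared. Their ratios lay between -0.31 and 0.70, so that CCDC115 was the lowest of the 30.

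**Figure D4:**
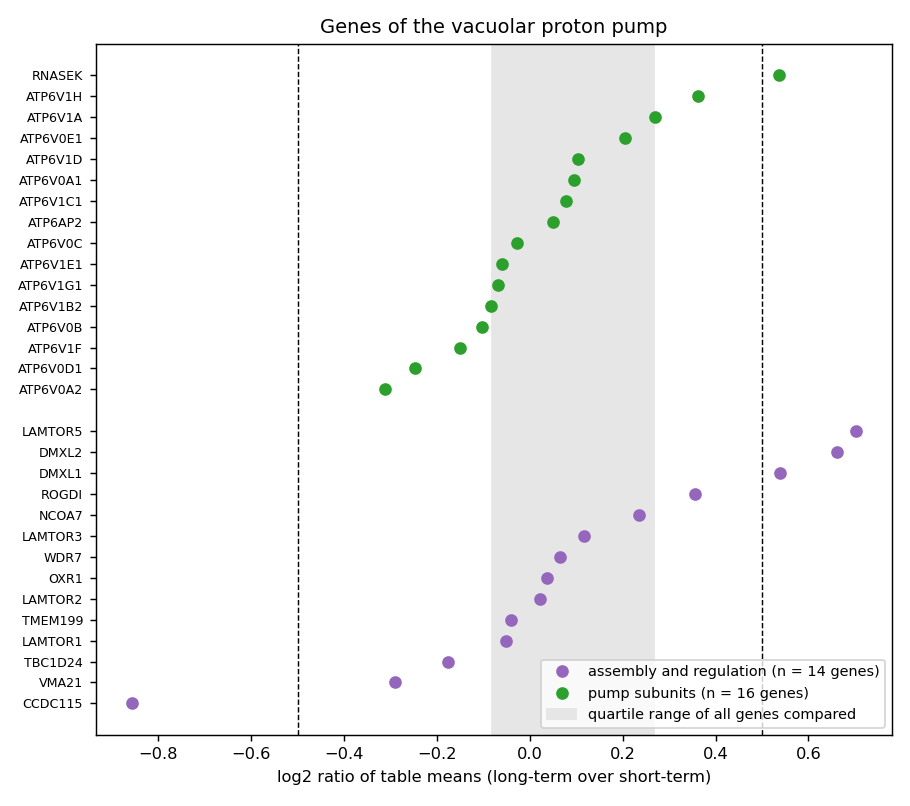
Log2 ratio of the table means (long-term over short-term) for 14 assembly and regulation genes (purple) and 16 pump subunits (green), with dashed lines at -0.5 and 0.5 and the range between the quartiles of all 8733 genes shaded. CCDC115 lies at -0.86, and the nearest gene of either list, ATP6V0A2, at -0.31.

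Markers of cell types were read in the sorted cells. KIT (CD117), ENG (CD105) and CD34 are genes of the sort antigens, so their levels are no independent check of identity. The stage of the erythroid cells was not tested. The 7 proerythroblast markers KIT, ENG, TFRC, EPOR, GATA1, KLF1 and HBB each had at least 97.1 CPM in each table, and their log2 ratios lay between -0.07 and 0.15. CD34 and the neutrophil genes MPO, ELANE and LYZ had no value in either table, and the neutrophil marker CSF3R had 0.0698 CPM in the long-term table alone. Why a gene lacked a value was not tested, and the pump subunit ATP6AP1 lacked one too. A missing value is thus no proof of absence. Of 4 macrophage markers, CD163 and C1QC had a value in both tables, at 0.115 and 0.389 CPM in the short-term table and 3.38 and 2.31 CPM in the long-term table, and CD14 had 0.140 CPM in the long-term table alone. The summed level of the macrophage markers was 0.504 CPM in the short-term table and 5.82 CPM in the long-term table, and their part in the values of the pump genes was not tested. Of 4 megakaryocyte markers, 3 had a value in the long-term table alone, together 2.49 CPM. Stem cell markers summed to 0.633 CPM at most in either table, and the lymphoid marker MS4A1, the only one of 4 with a value, was at 0.0604 CPM in the short-term table and at 0 in the long-term table.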

How the data were processed

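The authors sequenced 6 libraries from the poly(A) end of transcripts, keeping the strand. BWA MEM (genome Panu_2.0), featureCounts and edgeR were used by the authors for alignment, counting and analysis, in versions not given in the sources used here. Each of the 2 deposited tables lists 39023 genes. The authors' mean log2 CPM over the 4 libraries of each table was used, and 16353 uniquely named genes had it in both. The tables also hold the authors' fold changes, p-values, q-values, calls and enriched pathways, which were not used.

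The members and lists were chosen with earlier results of these data known. In the long-term column 901 genes shared the lowest value, that of no reads at a prior count of 2, which gave the mean library size. In the short-term column the 4 lowest values were those of 1 read in 1 library at a prior count of 0.25. Both priors, and the kind of mean, are inferred from the values. After the prior was subtracted, long-term levels summed to 1000280 CPM, as arithmetic means would, and short-term levels to 969158 CPM. Long-term levels of 4954 low genes, converted to 1 to 19 reads, fell within 0.1 of a whole read in 69.0% of cases. Exact Poisson limits (95%) on the estimated reads were combined by the MOVER method. Reads carry no molecular identifiers, so these limits cover counting error only, and they ignore that both tables share controls. Library sizes, and the difference as a lower limit, were tested on simulated data built with the same kinds of mean and prior counts. That simulation could not check these inferred settings, and it left out the separate scaling of the tables. Named genes were the members, list genes past a log2 ratio of 0.5 in size or highest or lowest in their list, and the 5 genes nearest to CCDC115; 1 cell type marker is not reported here. Alternatives were the prior left in, 2 scalings of the long-term table, other level minimums and other thresholds. Python 3.11.15, numpy 2.4.6, pandas 2.3.3 and scipy 1.17.1 were used.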

Additional observations from a re-analysis of the deposited data

How the results depend on the processing

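The lower limit of the difference between short-term and long-term samples lay between 107.9 and 115.0 CPM for CCDC115 and between 113.5 and 120.3 CPM for LOC101008044 with the prior count left in, with the long-term table scaled by the median ratio and with it scaled by the other pump subunits. For ATP6V0C the median scaling moved this limit from 21.1 to 70.1 CPM. The number of genes with a log2 ratio at or under -0.5 was 99, and it became 242 at a minimum mean log2 CPM of 0, 22 at a minimum of 5, 168 with the median scaling and 64 with the prior left in. At thresholds of 0.25 and 0.75 it was 661 and 20. CCDC115 and LOC101008044 were among these genes in all 6 alternatives, and VMA21 joined them at 0.25. As CCDC115 and LOC101008044 had been picked for a low long-term level, their place there is a description. No paired analysis was possible because no values per library were used, and for the same reason no replicate could be left out. Group levels, the spread between animals and a test of any difference are thus beyond these means.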
